A study of Saccharomyces cerevisiae with 8 samples.

Results

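Among 6528 array features of the budding yeast Saccharomyces cerevisiae, 40 (0.613%) departed from the parental level in 1 direction on all 4 arrays of hybrid Sce2950 while the 4 arrays of hybrid Sce2965 disagreed in sign. They were chosen by measured values. In the authors' value table of log2 ratios of hybrid over parental mix, a feature had to have 1 sign on all 4 Sce2950 arrays, a mean of size 0.4 or more over them, and mixed signs over the 4 Sce2965 arrays. A ratio of 0 means that hybrid and mix gave equal signal, and 1 is a doubling. Of the 40 members, 28 were above the mix in Sce2950 and 12 were below it. No file at hand links a spot to a gene, so the members are given by the numbers of their duplicate spots and no gene function is attached to them.

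A hybrid carries the genomes of both its parents in 1 cell, and a transcript that simply averaged the parental levels would sit at the level of a mix of parental RNA. Departures from the mix are called non-additive expression. They can arise in principle when regulators of one parent act on genes of the other, when alleles interact, or when the physiology of the hybrid differs from that of either parent. Here the parents were lines adapted to unlike environments, and the series set each hybrid against its parents rather than against their ancestor.

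Hybrid Sce2950 was hybridised with a mix of RNA from the lines sce2709 and sce2898, and hybrid Sce2965 with a mix from the lines sce2713 and sce2902, on 4 arrays each. Each hybrid is represented by 1 strain number, so the spread given here is that between arrays of a strain and not between independently made hybrids. Per the labels, cells came from a culture of a single colony grown to early log phase in dilute rich medium (YPD), and total RNA was labelled directly as cDNA and placed on spotted arrays with 2 colours. The labels call the arrays of a comparison independent replicates but name no culture for an array, so p-values cover only the spread between arrays, which may be partly technical. The hybrid carried Cy5 on replicates 1 and 3 and Cy3 on replicates 2 and 4 of Sce2950. It carried Cy3 on replicates 1 and 4 and Cy5 on replicates 2 and 3 of Sce2965.

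The slides fall into 3 series by the first digits of the slide numbers in the labels, which say nothing more of how the series differ. Replicates 1 and 2 of Sce2950 lay on a series of their own, replicates 1 and 2 of Sce2965 on another, and replicates 3 and 4 of both hybrids on a shared one. The background reading was 0 for every spot of Sce2950's own slides in both channels, and its median lay between 56.3 and 65.9 intensity units on the shared slides. On the shared slides the value-table ratios of arrays with opposite dye orientation correlated between -0.61 and -0.40 over 6528 features, while a Sce2950 array and a Sce2965 array with equal dye orientation correlated at 0.59 and 0.63. Features are not replicates, and these correlations describe the arrays. Among the arrays of Sce2950 they lay between -0.57 and 0.18, with the lowest, -0.57, between replicates 3 and 4, the opposite dyes of the shared slides. Ratios on the shared slides thus moved with the dye as labelled, and the part of this in the members was not tested. The sign of every ratio rests on the dyes in the labels, which were taken as given. Were the dyes of an array recorded the wrong way round, its signs would turn, and with them the membership and the counts above and below the mix. The rule asks for 1 sign in both orientations of Sce2950 but not for equal sizes.

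Most members departed from the mix by a modest amount. Their mean log2 ratio in Sce2950 had a median size of 0.50, or 1.41-fold, and ranged in size from 0.40 to 1.35, or 1.32-fold to 2.55-fold. There were 33 members of size under 0.6, 5 of size 0.6 to 1 and 2 of size 1 or more, and both of the last were above the mix. The 28 members above the mix had a median ratio of 0.49 and a median SD between the 4 arrays of 0.256. The 12 below it had a median size of 0.53 and a median SD of 0.415. Over all features the median size was 0.0902 and the median SD 0.246, but the members had to be large, so the gap in size follows from the choice. In 21 members, 16 above and 5 below, even the smallest Sce2950 array had a ratio of size 0.2 or more, and in 9 members it was under 0.1.

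**Figure D1:**
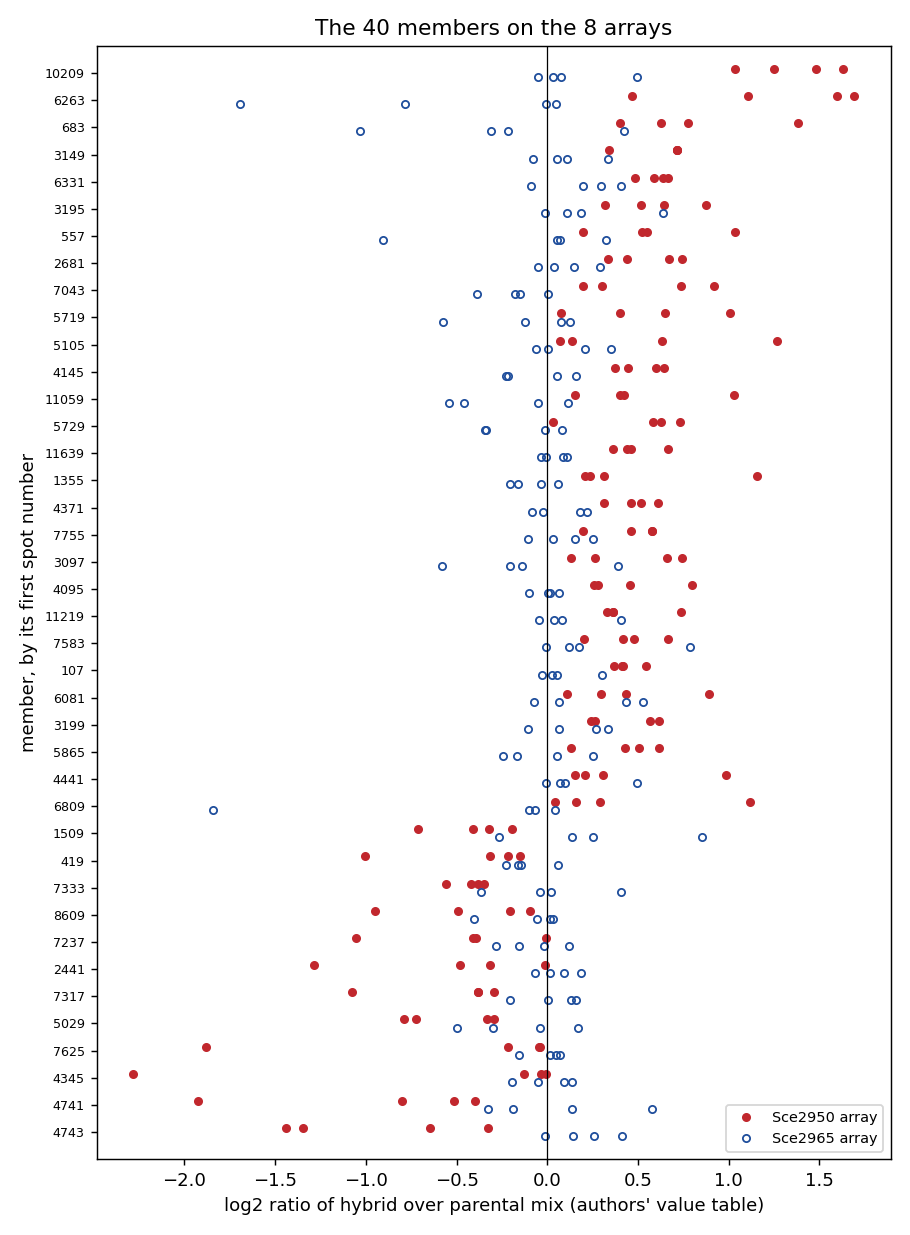
Log2 ratio of hybrid over parental mix in the authors' value table (horizontal axis) for each of the 40 members (rows, by first spot number, ordered by the Sce2950 mean), with filled points for the 4 Sce2950 arrays and open points for the 4 Sce2965 arrays. The filled points of every member lie on 1 side of 0, as the rule demands, and in 17 members, as in 3.74% of all features, they lie entirely above or entirely below the open points.

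The highest member was at spots 10209 and 10210, in row 10 of print block 38. Its log2 ratios were 1.25, 1.63, 1.03 and 1.48 on replicates 1 to 4 of Sce2950, and 0.03, -0.05, 0.08 and 0.50 on replicates 1 to 4 of Sce2965. The hybrids were clear of each other, and replicate 4 of Sce2965 was the only Sce2965 array above 0.1. Over its 4 arrays Sce2950 averaged 1.35 ± 0.261, and Sce2965 averaged 0.14 ± 0.244 (SD, n = 4 each). Before any normalization the feature had an intensity of 784.7, 814.6, 495.5 and 708.6 in Sce2950, against 299.9, 249.1, 390.1 and 228.5 in its parental mix on the same arrays. The hybrid channel was thus brighter in both dyes. Its duplicate spots differed by at most 0.161 on any Sce2950 array. Recomputed from the scanner intensities the means were 1.26 in Sce2950 and 0.13 in Sce2965, and this member still met the rule. Its Sce2965 arrays were then at 0.33, -0.33, 0.17 and 0.35 on replicates 1 to 4 (SD 0.317, n = 4). Replicates 1 to 3 thus lay further from 0 than in the value table, and replicate 4 lay nearer to it.

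Next came spots 6263 and 6264, in row 1 of block 24, with 1.69, 1.11, 0.47 and 1.60 on the Sce2950 arrays and -0.01, 0.05, -1.69 and -0.78 on the Sce2965 arrays. Here the Sce2965 mean was the lowest of all members, at -0.61 ± 0.815, against 1.22 ± 0.562 in Sce2950 (SD, n = 4 each). The mixed sign in Sce2965 rested on replicate 2, at 0.05. With ratios recomputed from the scanner files with global loess, a smooth correction for brightness over the whole array, the Sce2965 values were -0.79, -0.79, -1.59 and -0.92, all below the mix. With print-tip loess, which fits that correction within each print block, they were -0.10, -0.11, -1.63 and -0.78. In both recomputations this feature therefore goes against the description of departing in Sce2950 alone, because it departed in the opposite direction in Sce2965.

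A pair of other members also took opposite signs in the hybrids when recomputed. Spots 6809 and 6810, in row 1 of block 26, were the brightest of the 40 and the member above the mix nearest to the limit of 0.4. They gave 0.16, 0.29, 0.04 and 1.12 in Sce2950, a mean of 0.40 ± 0.487, and -0.07, 0.04, -1.84 and -0.10 in Sce2965, a mean of -0.49 ± 0.903 (SD, n = 4 each). A single array in each hybrid carried most of the mean. With global loess the Sce2950 ratios were 1.06, 1.18, 0.12 and 1.59 and the Sce2965 ratios -0.84, -0.87, -2.14 and -0.60, so replicate 3 of each hybrid kept its place as the lowest and all other arrays moved away from 0. Spots 7043 and 7044, chosen after their values were seen, gave 0.20, 0.92, 0.30 and 0.74 in Sce2950 and -0.15, 0.00, -0.39 and -0.18 in Sce2965. Recomputed with global loess, this feature averaged 0.56 in Sce2950 and -0.38 in Sce2965 and was below the mix on every Sce2965 array. With print-tip loess its means were 0.53 and -0.18, so its Sce2965 mean stayed under 0.4 in size both times. Those at spots 6809 and 6810 were 0.49 and -0.54 with print-tip loess, against 0.99 and -1.11 with global loess. These 3 members had opposite signs in the hybrids under both recomputations, and 3 more with global loess and 1 more with print-tip loess were above the mix on every array of both hybrids.

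**Figure D2:**
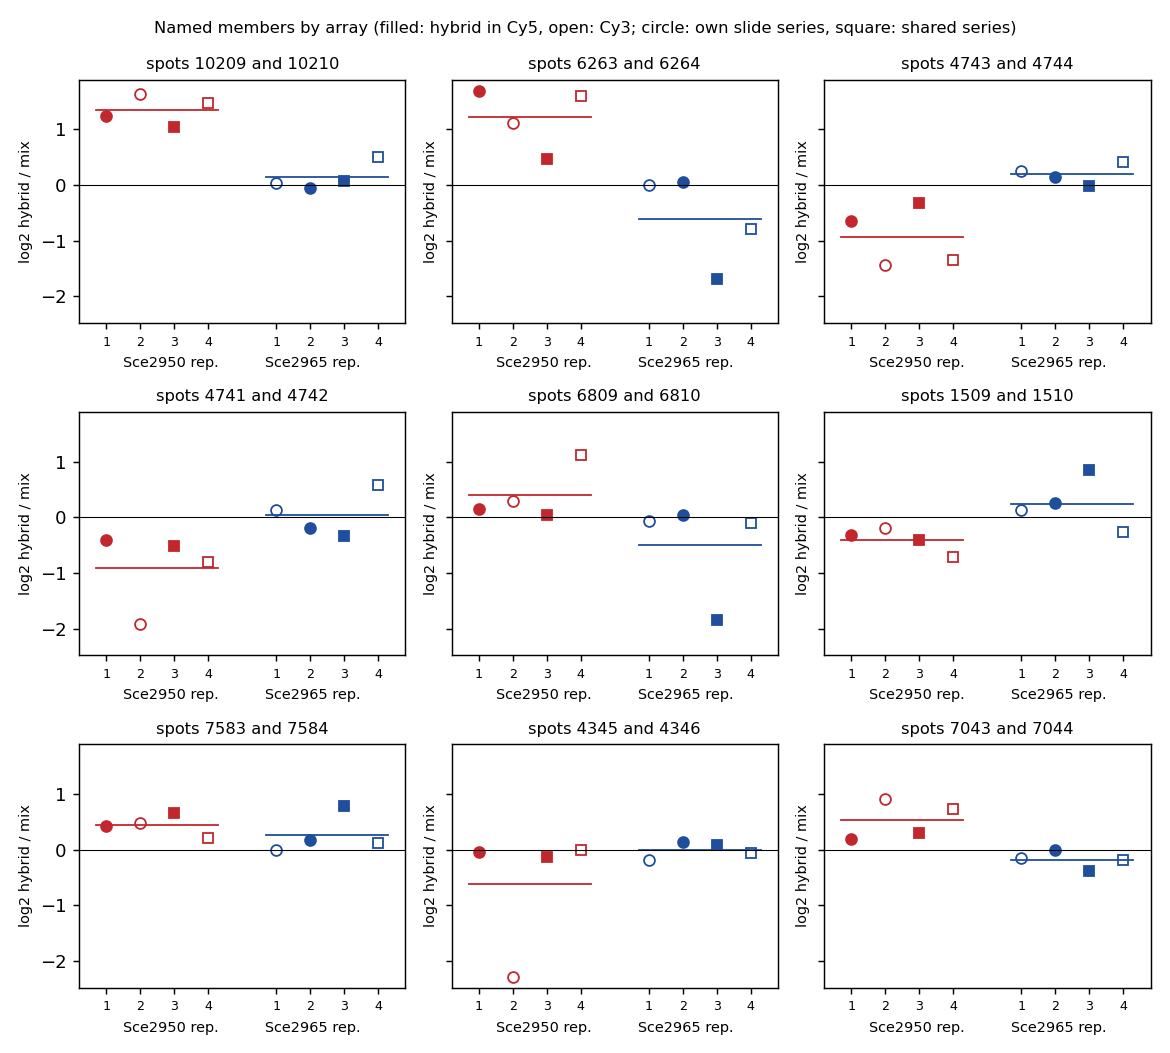
Log2 ratio of hybrid over mix in the authors' value table (vertical axis) on each array for 9 members, with Sce2950 replicates 1 to 4 on the left and Sce2965 replicates 1 to 4 on the right of each panel, and horizontal lines at the means. Filled and open marks give the hybrid in Cy5 and Cy3, and circles and squares give own and shared slide series; spots 10209 and 10210 lie above 1 on all 4 Sce2950 arrays, while spots 4345 and 4346 leave 0 on replicate 2 of Sce2950 alone.

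Below the mix, the 2 members of largest size lay next to each other in row 8 of block 18 and were the single pair of members printed side by side. Spots 4743 and 4744 gave -0.65, -1.44, -0.33 and -1.35 on the Sce2950 arrays, a mean of -0.94 ± 0.541, and 0.26, 0.14, -0.01 and 0.41 on the Sce2965 arrays, a mean of 0.20 ± 0.179 (SD, n = 4 each). The larger departures in Sce2950 were those of replicates 2 and 4, where the hybrid carried Cy3, and the hybrids did not overlap. Its intensities were 6825, 3259, 6324 and 7145 in Sce2950, against 9381, 10603, 16197 and 12755 in the mix. It was brighter than 99.7% of all features. The neighbouring feature at spots 4741 and 4742 was much dimmer, brighter than 38.1% of features. Its ratios were -0.40, -1.93, -0.51 and -0.80 in Sce2950, a mean of -0.91 ± 0.698, and 0.14, -0.19, -0.33 and 0.58 in Sce2965 (SD, n = 4). Replicate 2 stood lowest in Sce2950, and on it the duplicate spots were at -2.33 and -1.52. Whether the neighbours represent 1 gene or related sequences cannot be read from the files, and their shared position was not tested.

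Another member below the mix rested mostly on replicate 2 of Sce2950. The member at spots 4345 and 4346, chosen after its values were seen as the dimmest of the 40, gave -0.04, -2.28, -0.13 and -0.01 in Sce2950, so that replicate 2 made up 92.9% of its summed size. On that array the intensity was 38.4 in the hybrid and 0.545 in the mix, with a recorded background of 0. The raw intensities thus ran opposite to the normalized ratio. With global loess its Sce2950 mean was -0.02, and with print-tip loess -0.17. Just inside the limit was the feature at spots 1509 and 1510, with -0.32, -0.20, -0.41 and -0.71 in Sce2950, a mean of -0.41 ± 0.219, and 0.13, 0.25, 0.85 and -0.26 in Sce2965 (SD, n = 4). Its duplicate spots were at 0.04 and -0.86 on replicate 3 of Sce2950, and its Sce2965 arrays spread more widely than its Sce2950 arrays.

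Just outside the limit on the upper side was the feature at spots 5041 and 5042, with a mean of 0.3996 ± 0.555 (SD, n = 4), and on the lower side the feature at spots 9571 and 9572, with -0.397 ± 0.530 (SD, n = 4). Each rested on replicate 2, at 1.22 and -1.19. The evenest member was at spots 107 and 108, chosen after its values were seen. It gave 0.42, 0.55, 0.41 and 0.37 in Sce2950 and 0.05, 0.30, -0.03 and 0.03 in Sce2965, a mean of 0.44 ± 0.0776 against 0.09 ± 0.147 (SD, n = 4 each), with no overlap. The member with the highest Sce2965 mean was at spots 7583 and 7584, with 0.42, 0.48, 0.67 and 0.20 in Sce2950 and -0.01, 0.17, 0.78 and 0.12 in Sce2965. Its highest array of all was replicate 3 of Sce2965, and the range of the Sce2965 arrays enclosed that of the Sce2950 arrays.

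In Sce2965 the 40 members had a smaller median size than in Sce2950, and the rule favours this by asking for mixed signs there. Their means had a median of 0.01 and a range from -0.61 to 0.27, and the median size was 0.119, against 0.0681 over all features. The size was under 0.2 in 30 members and 0.4 or more in 2, those at spots 6263 and 6809. Mixed signs need not mean values near 0. All 4 Sce2965 arrays stayed under 0.4 in size in 20 members. In 11 members an array reached 0.4 or more against the direction of Sce2950, and in 10 members an array reached it in the direction of Sce2950.

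The single sign out of 4 decided most memberships. In 31 of 40 members, 3 Sce2965 arrays had one sign and 1 array the other, and this was so in 53.7% of all features with mixed signs in Sce2965. In 18 members the 3 arrays had the same sign as Sce2950, in 13 members they had the opposite sign, and in 9 members the split was even. Of these 9, 3 were parted by dye orientation, 4 by slide series and 2 across both. Mixed signs are the common state on these arrays, since 86.9% of all features had them in Sce2965. Among the 735 features with 1 sign on all Sce2950 arrays the share was 75.1%, and among the 74 of these with a mean of size 0.4 or more it was 54.1%, that is, the 40 members. Of the remaining 34, 18 had the opposite sign on all 4 Sce2965 arrays and 16 the same sign. These shares describe the arrays and were not tested.

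The Sce2950 arrays did not contribute equally, and replicate 2 gave the largest departures. Over the members above the mix, the median ratios on replicates 1 to 4 were 0.57, 0.65, 0.40 and 0.41, and over those below it -0.35, -1.04, -0.39 and -0.22. Replicate 2 gave the largest of the 4 sizes in 22 members, replicate 1 in 7, replicate 3 in 7 and replicate 4 in 4. Replicate 2 was also the array with the widest ratios over all features, with an SD of 0.435 against 0.273 to 0.293 on the other Sce2950 arrays, and it gave the largest size in 37.9% of all features. The part of that width in the members was not tested. A single array made up more than 50% of the summed size in 14 members, 6 above and 8 below. Whichever of the 4 arrays was left out, the mean stayed at a size of 0.4 or more in 17 members, 14 above and 3 below.

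The mean of replicates 1 and 2, on Sce2950's own slides, was larger in size than that of replicates 3 and 4, on the shared slides, in 32 of 40 members. This was so in 70.2% of all features, and the wide replicate 2 enters the first mean. A mean of size 0.4 or more was seen in 36 members on the own slides, in 20 on the shared slides, and in 16 on both, of which 13 were above the mix. In 15 members, 8 above and 7 below, the mean on the own slides was at least 2 times that on the shared slides. By dye, the mean of the Cy5 arrays was larger in size than that of the Cy3 arrays in 10 members, and 23 members reached 0.4 on Cy5 and 33 on Cy3. Replicates 2 and 4 are the Cy3 arrays, so the dye difference includes the wide replicate 2.

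**Figure D3:**
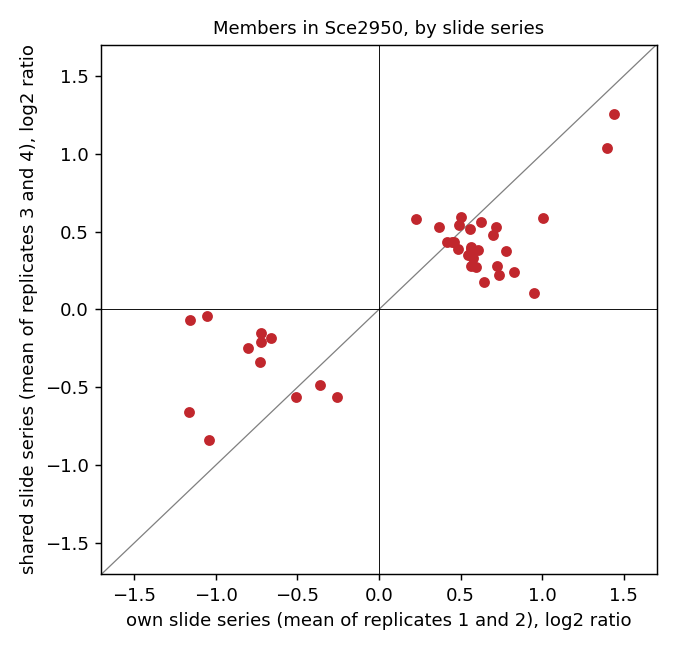
Mean log2 ratio of each of the 40 members in Sce2950 on its own slide series (replicates 1 and 2, horizontal axis) and on the shared series (replicates 3 and 4, vertical axis), from the authors' value table, with a line of equality. Of the 40 points, 32 have a larger size on the own series, and the 2 highest members lie above 1 on both axes.

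The duplicate spots of a feature share the RNA and the slide and differ in position, so they show how far a ratio holds within an array. Both spots had 1 sign on all 4 Sce2950 arrays in 26 members, 22 of the 28 above the mix and 4 of the 12 below it. The rule had tested the average of the spots and not each spot, but this measure shares its values with the rule and is given as a description. Among all features with 1 sign in Sce2950 the share was 41.4%. The largest gap between the spots on any Sce2950 array had a median of 0.219 in the members above the mix and 0.853 in those below it, and was over 1 in 6 members. Those below the mix were thus the less even ones within arrays as well as between them.

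Brightness was not used by the rule. The mean log2 intensity of the members' spots had a median of 8.31, at 8.59 above the mix and 7.95 below it, against 7.64 over all features. Of the 40, 30 were brighter than the median feature, 7 were in the brightest 10% and 4 in the dimmest 10%. The 10 dimmer members included 5 of the 12 below the mix, and in 8 of them a single array made up over 50% of the summed size, against 6 of the 30 brighter ones. The median SD in Sce2950 was 0.42 in the dimmer and 0.254 in the brighter members. Both spots held 1 sign in 4 of the 10 dimmer and 22 of the 30 brighter members.

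**Figure D4:**
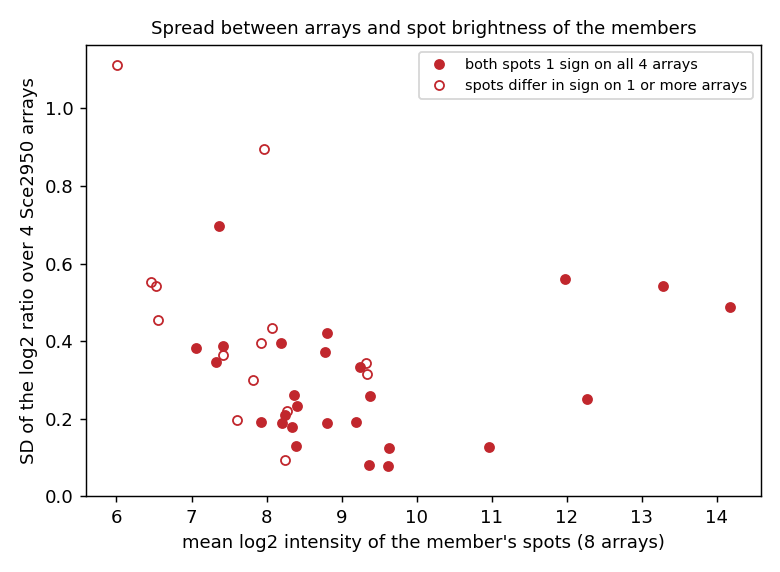
SD of the log2 ratio over the 4 Sce2950 arrays (vertical axis) against the mean log2 intensity of the member's spots over 8 arrays (horizontal axis) for the 40 members. Filled points mark the 26 members whose duplicate spots both had 1 sign on all 4 Sce2950 arrays; the dimmest member has the widest spread, with an SD of 1.11.

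On the slide the members were scattered. They lay in 24 of 48 print blocks, with at most 4 in a block. The first or last of the 17 rows of a block held 10 members, 6 above and 4 below, or 25.0%, against 11.8% of all features. This share was not tested, and the members at spots 6263, 6809 and 4345 were among these 10.

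Directions held when the ratios were recomputed, but membership did not always. The recomputed ratios come from the same spots and arrays that the rule used, so kept directions describe the processing and are no separate check. With background correction by normexp at an offset of 50 and global loess, all 40 members kept the direction of their Sce2950 mean, with a median size of 0.46. There were 33 with 1 sign on all 4 Sce2950 arrays, 25 above and 8 below, and 28 with a mean of size 0.4 or more, 23 above and 5 below. With print-tip loess all 40 again kept their direction, 35 had 1 sign, 28 above and 7 below, and 27 had a mean of 0.4 or more, at a median size of 0.44. The members below the mix shrank most, to a median of -0.35 with global loess and -0.31 with print-tip loess, against -0.53 in the value table. The members above it stayed at 0.49 and 0.48. The rule was met in full by 22 members with global loess, by 23 with print-tip loess and by 19 under all 3 processings, of which 16 were above the mix and 3 below.

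**Figure D5:**
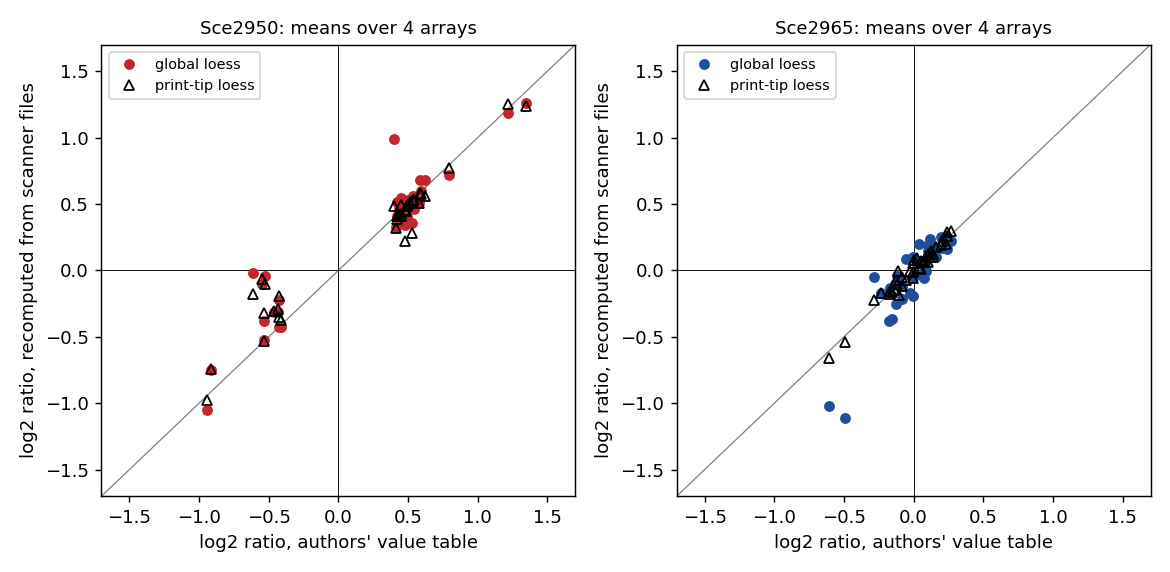
Mean log2 ratio of each of the 40 members over 4 arrays, recomputed from the scanner files (vertical axis; filled for global loess, triangles for print-tip loess), against the authors' value table (horizontal axis), for Sce2950 on the left and Sce2965 on the right. In Sce2950 all points keep their direction and several members below the mix shrink towards 0; in Sce2965 spots 6263 and 6809 stand lowest, at -1.02 and -1.11 with global loess.

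A fit by limma over 6526 features, with 1 coefficient per hybrid and a dye term common to both, gives the spread of single members. The rule used these ratios, so the counts describe the members and support nothing. Against the mix, 2 of 40 members passed an adjusted p of 0.05 in Sce2950, where 0.184% of all features passed. Both were above the mix, and 27 members had an unadjusted p under 0.05, as had 148, or 2.27%, of all features. Spots 10209 and 10210 were at 1.26 with a standard error of 0.127 (limma adjusted p = 0.00659) and spots 6263 and 6264 at 1.18 with a standard error of 0.156 (limma adjusted p = 0.0132). When replicate 1, 2 or 4 of Sce2950 was left out, neither passed, and 0 of all features did. The first was then at 1.19, 1.22 and 1.34 (limma adjusted p = 0.0926, 0.0917 and 0.0518), and the second at 1.07, 1.23 and 1.11 (limma adjusted p = 0.183, 0.0944 and 0.181). The call at spots 10209 and 10210 also ended with normexp at offset 0, where 0 of all features passed, at 1.43 (limma adjusted p = 0.138). That at spots 6263 and 6264 ended with print-tip loess at 1.25, median centring at 1.07, normexp at offset 0 at 1.18, and in the authors' value table at 1.22 (limma adjusted p = 0.0606, 0.137, 0.226 and 0.273). The calls thus ended with little change in the ratios. In this fit no member below the mix passed. The lowest adjusted p among the named ones below it was that of spots 4743 and 4744, at -1.05 (limma adjusted p = 0.159). That feature passed in 4 other settings and not in 17. The 4 were print-tip loess, array weights, the slide series as a random block and the shared slides alone. The members at spots 4741 and 1509 each passed in 2 settings, and not in 18 and 19. Above the mix, those at spots 6809, 7043 and 7583 passed in 3, 4 and 2 settings, and not in 18, 17 and 19.

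In Sce2965, where 0.429% of all features passed, 1 member passed, at spots 6263 and 6264, which fell by 1.02 on the log2 scale (limma adjusted p = 0.0208). The call was absent with print-tip loess, in the authors' value table, and when replicate 1, 3 or 4 of Sce2965 was left out, each with 0 members past the threshold. Over all features 84, 19, 5, 0 and 0 passed in these settings. For the difference of Sce2950 minus Sce2965, 4 members passed, where 0.398% of all features did, and 16 had an unadjusted p under 0.05, as had 221 of all 6526 features. The 4 were higher in Sce2950. The differences were 1.13 at spots 10209 and 10210 (limma adjusted p = 0.0235), 2.21 at spots 6263 and 6264 (limma adjusted p = 0.0011), 2.10 at spots 6809 and 6810 (limma adjusted p = 0.0107) and 0.94 at spots 7043 and 7044 (limma adjusted p = 0.0368). In the last 3 the Sce2965 ratio lay below the mix. Leaving out any 1 array other than replicate 2 of Sce2965 gave 1 or 2 members past the threshold, among 10 to 18 of all features. Leaving out replicate 2 of Sce2965 gave 4, among 25 of all features. The difference at spots 6263 and 6264 passed whichever array was left out, and that at spots 7043 and 7044 lost its call whichever was left out. That at spots 10209 and 10210 kept its call only without replicate 2 of Sce2965. At spots 6809 and 6810 the call was lost without replicate 1 or 4 of Sce2950 or replicate 4 of Sce2965, and kept otherwise. A fixed block for the slide series leaves only the shared slides to give the difference, and limma then passed 0 members and 0 of all features. In that fit 6 members had an unadjusted p under 0.05. In the value table the ranges of the hybrids were apart in 17 of 40 members, 14 of them higher in Sce2950, against 3.74% of all features. The rule itself pulls the hybrids apart, so nothing is read from that gap. In the other 23 members the ranges of the hybrids overlapped.

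The mirrored rule, which asks for 1 sign and a mean of 0.4 or more in Sce2965 and mixed signs in Sce2950, found 58 features, 37 above the mix and 21 below. The 40 members had a median size of 0.50 in Sce2950 and 0.119 in Sce2965, and the 58 features had one of 0.119 in Sce2950 and 0.523 in Sce2965. The 40 members were dimmer, with a median log2 intensity of 8.31, against 9.56 in the 58. The difference in brightness was not tested.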

How the data were processed

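Total RNA of 2 hybrids was compared with parental mixes on 8 arrays. Per the file headers, the deposited scanner files hold the intensity and local background of 13056 spots in each channel, not background subtracted, with the mix in channel 1 and the hybrid in channel 2. The columns of channel 2 were registered under the unit "other" for the deposited files, and their values are intensities. The authors' deposited value table gives ratios of hybrid over mix as log2. Its scale, direction and centring were read from a comparison with ratios recomputed by plain background subtraction and print-tip loess (correlations 0.962 to 0.997, slopes 0.922 to 0.991). The medians of its columns were 0.00464, -0.00616, -0.00276 and 0.00835 for replicates 1 to 4 of Sce2950, and 0.000977, -0.00145, -0.00322 and 0.00333 for those of Sce2965. Which tool the authors normalized with was not given in the sources used here.

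Duplicate spots were averaged into 6528 features, and the members were found in the value table. Ratios were also recomputed with limma 3.58.1 in R 4.3.3 (normexp with offset 50, global loess). These ratios followed the value table less closely. Over features they correlated with it at 0.702, 0.673, 0.870 and 0.913 on replicates 1 to 4 of Sce2950. On replicates 1 to 4 of Sce2965 the correlations were 0.564, 0.682, 0.892 and 0.868. The lower values were those of replicates 1 and 2, outside the shared slides. limma was fitted to the 6526 features with values on 3 or more arrays per hybrid, two-sided, with Benjamini-Hochberg adjustment at 0.05 over all of them, a coefficient per hybrid and a shared dye term. The fit was tested on simulated data with independent noise on each array and no dye effect. That test thus does not cover the correlations between arrays seen on the shared slides. Members and lists were chosen with earlier results of these data known. Named features were the 2 of largest mean in each direction in Sce2950, the features on either side of the limit of 0.4, the extremes in Sce2965 and the members past the threshold in Sce2950. Other named features are marked as chosen after their values were seen. Alternatives covered normalization, background, dim features, dye, array weights, slide series, replicate number, the limit and each array left out. The number of arrays limits the precision. No sequence or gene name was used.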

Additional observations from a re-analysis of the deposited data

Results flagged for a closer look

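An array stood apart from the other 3 of its hybrid, by Dixon's test on the gap to its nearest neighbour, in 2 named members. At spots 4345 and 4346 this was replicate 2 of Sce2950, at -2.28. At spots 6809 and 6810 it was replicate 3 of Sce2965, at -1.84. Over all 40 members there were 6 such cases in Sce2950, 5 of them on replicate 2 and 1 on replicate 3, and 1 in Sce2965. Chance gives such a gap in about 5% of groups that were not selected. The members were chosen on these same arrays, and replicate 2 is the widest array over all features, so their count is not read against that share.

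The hybrids differed by the limma test of Sce2950 minus Sce2965 in 4 members, all chosen by a rule that draws the hybrids apart. Spots 10209 and 10210 had a log2 difference of 1.13, which lay between 0.86 and 1.28 over 22 other settings and lost its call in 10 of them. Spots 6263 and 6264 had one of 2.21, which lay between 1.83 and 2.38 and lost its call in 2. Spots 6809 and 6810 had one of 2.10, which lay between 0.90 and 2.36 and lost its call in 7. Spots 7043 and 7044 had one of 0.94, which lay between 0.71 and 1.06 and lost its call in 15.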

How the results depend on the processing

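All 40 members kept the direction of their Sce2950 mean under both loess methods, and no named value that had passed the threshold changed sign in any setting. The member at spots 4345 and 4346, which had not passed, did change sign. Its Sce2950 mean went from -0.019 in limma to 0.013 with no background subtraction and 0.016 without replicate 3 of Sce2950. The number of members past the threshold in Sce2950, 2 in limma, was 4 with print-tip loess, 1 with median centring, 5 after scaling, 18 with array weights, 7 with the slide series as a random block and 19 on the shared slides alone. Over all features 12 passed in limma, and 19, 2, 15, 57, 23 and 74 in these settings, so the counts of all features moved too. The number of members was 0 with normexp at offset 0, where 23 had an unadjusted p under 0.05, and 0 to 2 with an array left out (19 to 27 at an unadjusted p under 0.05 where it was 0). Wherever it was 0, the count over all features was 0 too. With an array left out and 2 members past the threshold, 5 to 14 of all features passed. In Sce2965, 1 in limma, it was 0 with print-tip loess, median centring, scaling, normexp at offset 0, plain subtraction or the value table. In these settings 2 to 5 members had an unadjusted p under 0.05, and 84, 0, 10, 0, 11 and 19 of all features passed, against 28. It was 2 with dim features left out, array weights or the random block (58, 130 and 70 of all features), and 8 on the shared slides (245 of all). With an array left out it was 0 to 2. It was 0 without replicate 1, 3 or 4 of Sce2965 (5, 0 and 0 of all) and 2 without its replicate 2 (28 of all). For the difference, 4 in limma among 26 of all features, it was 2 with print-tip loess or median centring (32 and 15 of all). It was 1 with normexp at offset 0 or the value table (11 and 17 of all), 9 with array weights (79 of all) and 12 on the shared slides (125 of all). With the fixed block it was 0, as was the count over all features (6 members at an unadjusted p under 0.05). With an array left out it was 1 to 4 (10 to 25 of all). The shared slides alone leave 1 residual degree of freedom. The rule gave 110 features at a limit of 0.3 and 20 at 0.5. On ratios with global loess it gave 32, of which 22 were members, and on print-tip ratios 23, all of them members. With an array left out it gave 27 to 216 (69, 216 and 192 without replicates 1, 3 and 4 of Sce2950). Leaving out replicate 2 of Sce2950 gave 41 features, of which 26 were members. Leaving out an array changes both the mean and the signs to be met. The cause of these changes was not tested.

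Arrays with the same replicate number had deviations that correlated at -0.110, 0.0542, 0.663 and 0.655 for replicates 1 to 4. Replicates 3 and 4 shared slide series and dye orientation between the hybrids, while replicates 1 and 2 shared neither. The arrays on the shared slides were thus not independent between the hybrids. The limma fit took this up only through its dye term, and how much remained was not tested. Replicate numbers were not used as pairs in that fit. With a replicate block 13 members passed in Sce2950, 3 in Sce2965 and 6 for the difference, among 34, 212 and 64 of all features. With dim features left out, 30 members were tested.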
